A study of Homo sapiens with 2 samples.

Results

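The cells described here are the PPY-expressing cells of human stem cell-derived islet-like clusters, 317 of 62105 barcodes in 2 single-cell RNA libraries. They were selected on measured values: at least 2000 unique molecular identifiers (UMIs, 1 per captured RNA molecule), under 20% of UMIs from MT- genes, PPY at 1000 or more in UMIs per 1000000 UMIs of the cell (CPM), under 20000 CPM of the delta cell hormone SST, no UMI of the delta cell regulator HHEX, and fewer than 4 UMIs of the cell cycle genes MKI67 and TOP2A together. The library labelled no DOX held 97 of these cells and the library labelled DOX held 220. PPY itself is therefore given as a description, and so is every gene correlated with it in the same cells.

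Both libraries came from the iSOX9KO line, 1 clone of Mel1-INS-GFP human embryonic stem cells that carries a doxycycline (DOX)-inducible Cas9 and guides against SOX9, with GFP in the insulin gene. Both groups carry these alleles and differ in the label of the culture, with or without 2 ug/ml DOX from day 12 of differentiation, just before endocrine cells form. The GFP-high cells were sorted and reaggregated into enhanced beta clusters (eBCs), so that a sort for an active insulin gene lies before every value below, and live cells were sorted again for sequencing. There was 1 library per condition and hence no replicate, so no test was possible, and the 95% intervals cover counting error only.

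Pancreatic polypeptide (PPY), peptide YY (PYY) and neuropeptide Y (NPY) form a family of short amidated peptides that share a hairpin-like fold and act on Y receptors coupled to inhibitory G proteins. In the adult islet PPY marks the PP or gamma cell, a rare endocrine cell that is most frequent in the head of the pancreas and restrains exocrine secretion and appetite through the receptor NPY4R. PYY is an early hormone of the developing islet and of intestinal L cells. Its gene lies beside PPY, and the enzyme DPP4 trims the first residues of PYY and NPY.

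SOX9, the gene the guides are directed to, gave no UMI in the PPY-expressing cells without DOX and 2 UMIs, both in 1 cell, in those with DOX. The count of 0 allows up to 1.75 CPM by a floor of 3 counts, and its exact Poisson upper limit is 2.16 CPM. In the other cells of the same limits SOX9 was at 2.06 CPM (1.92 to 2.21) without DOX and 2.46 (2.30 to 2.62) with DOX, so its level with DOX was not below that without. These RNA counts do not measure protein, and the paper reports less SOX9 protein with DOX in cells of this line by Western blot. Editing in these 2 libraries was not tested. The libraries are therefore called by their labels throughout, and "with DOX" and "without DOX" refer to those labels. The libraries shared 369 barcodes. Of the PPY-expressing cells 3 carried a shared barcode and none was a member in both libraries.

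Depth was close to that of the rest. The members' median was 16027 UMIs and 3715 genes without DOX and 15344.5 UMIs and 3572.5 genes with DOX, against 16650 and 14760 UMIs in the other cells that met the same limits but had PPY under 1000 CPM (20709 and 23406 cells, called the other cells below). The share of MT- UMIs was 7.90% and 9.34% in the members and 8.03% and 8.69% in the other cells. Scrublet marked 26.8% and 30.0% of the members as doublets, against 23.9% and 24.4% of the other cells. All cells were kept, and counts of genes without the marked cells are given beside the main ones where they move.

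PPY levels showed no gap at the limit. Among the cells of these limits 17707 without DOX and 19091 with DOX had no PPY UMI, and 85 and 150 lay between 500 and 1000 CPM. Between 1000 and 2000 CPM there were 53 and 88 cells, between 2000 and 5000 there were 29 and 77, between 5000 and 20000 there were 13 and 45, and at 20000 or more 2 and 10. The members just inside the limit of 1000 lay at 1006 to 1060 CPM without DOX and 1009 to 1045 with DOX, and the cells just outside at 953 to 992 and 985 to 999. Without the limits on SST, HHEX and cycling genes 489 cells reached 1000 CPM of PPY, and the SST limit took 54 and 91 of them, the HHEX limit 22 and 22, and the cycling limit 15 and 18, some more than one.

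Outside the members PPY RNA was low. Free RNA in droplets gives some UMIs in cells that do not express a gene. Cells with duct genes (SOX9 and KRT19 at 100 CPM or more, 143 and 194 cells) held 13.0 and 7.84 CPM, from 39 and 32 UMIs. Insulin cells (INS at least 100000 CPM with GCG under 1000 and FEV under 500) were at 10.6 and 15.1 CPM, and FEV cells, which carry the serotonergic and endocrine progenitor factor FEV at 1000 CPM or more, at 8.64 and 12.1. SST cells (SST at least 100000 CPM, outside the limits of the rule) were at 15.2 and 26.5. Insulin, FEV and SST cells were all taken with PPY under 1000 CPM, so their low level was in part set by that choice. The duct cells had no limit on PPY, SST or GCG. They held 12348 and 4606 CPM of SST, against 2164 and 2090 in insulin cells. Of GCG they held 977 and 283 CPM, against 172 and 197 in insulin cells, which had limits on both. Duct cells are thus no sure measure of free RNA, and its level was not tested. The interval of the duct cells was 9.26 to 17.8 CPM without DOX and 5.36 to 11.1 with DOX, and all of these classes lay above it with DOX. Cells with at least 5000 CPM of the alpha cell hormone GCG and PPY under 1000 (GCG cells, 1623 and 1571) were higher, at 52.2 and 77.4 CPM. After thinning to 5000 UMIs and leaving out shallower cells (142 and 80 GCG cells, 853 and 536 other cells, 12 and 13 members), 16.1% and 23.4% of the GCG cells had a PPY UMI, against 1.43% and 3.63% of the duct cells, 3.12% and 5.46% of the FEV cells and 5.72% and 7.43% of all other cells. Without thinning the GCG cells were at 34.3% and 44.6% and the duct cells at 9.09% and 13.4%.

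Within the members PPY spanned a wide range. The median cell was at 1815 CPM without DOX (quartiles 1287 and 3422, highest 50616) and 2446 CPM with DOX (quartiles 1511 and 4753, highest 186706). The cells held 3 to 691 PPY UMIs without DOX and 3 to 1953 with DOX, with medians of 34 and 41.5. Summed over cells, PPY was 3571 and 5396 CPM.

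PYY, the second marker of these cells and not part of the rule, had at least 1 UMI in every member, and after thinning to 5000 UMIs in 96.5% and 95.2%, against 14.3% and 21.8% of the duct cells, which held 108 and 132 CPM of PYY. Its median was 3177 CPM without DOX and 3017 CPM with DOX, against 59.6 and 50.3 in the other cells, and the lowest member was at 43.1 and 58.7, below the duct cells. Summed over cells PYY was 5314 CPM against 646 without DOX, a log2 ratio of 3.04, and 4837 against 534 with DOX, a log2 ratio of 3.18. At least 1000 CPM of PYY was reached by 83.5% and 85.5% of members and by 12.7% and 10.8% of the other cells. Between members PPY and PYY went together only weakly, with a Spearman rho of 0.25 over 97 cells and 0.10 over 220, each within 1 library and with depth shared between both values.

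PPY (ENSG00000108849) and PYY (ENSG00000131096) lie on the minus strand of chromosome 17 (GRCh38, GENCODE 44), PPY at 43940804 to 43942476 and the PYY gene model at 43952733 to 44004469, with 10257 bases between them. Their promoters are shown because both genes were high in the same cells. The lines give bases 100 to 16 before a RefSeq transcription start (GRCh38.p14, minus strand, 5′ to 3′), and the capitals mark TATAA, the core of the TATA box that positions the start of transcription.
PPY, chr17:43942492-43942576: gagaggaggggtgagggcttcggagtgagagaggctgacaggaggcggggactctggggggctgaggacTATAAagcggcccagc
PYY, chr17:43953956-43954040: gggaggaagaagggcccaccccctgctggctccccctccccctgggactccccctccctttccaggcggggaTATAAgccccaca
The letters TATAA began 31 bases before the start of PPY and 28 bases before that of PYY, on the strand of the gene. The PYY start used here lies inside the longer gene model. Other RefSeq starts listed for PPY and PYY had no match in the same window. Of 35116 promoter windows of the same 85 bases, 2217 (6.31%) held TATAA on the gene's strand and 2937 (8.36%) on either strand. A match of these letters is a description of the sequence and not a measured site.

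The neighbours of PPY were looked at after the leading genes were known, because 1 of them, the non-coding gene RP11-527L4.2 (ENSG00000261514), led the ranking after PPY itself. It lies at 43938257 to 43938963 on the plus strand (LINC01976 in GENCODE 44), 1841 bases past the 3′ end of PPY. RP11-527L4.2 was at 43.9 CPM in the members against 4.86 in the other cells without DOX, a log2 ratio of 3.17 (2.82 to 3.51), and at 48.4 against 4.71 with DOX, a log2 ratio of 3.36 (3.14 to 3.58). It had a UMI in 42.3% and 46.8% of members. Both libraries gave the same direction and nearly the same size.

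Among the other classes RP11-527L4.2, like PPY, was highest in GCG cells. GCG cells held 13.8 and 15.3 CPM, insulin cells 3.74 and 3.36, FEV cells 1.65 and 1.54 and duct cells 1.34 and 0.98. Cells without any PPY UMI held 3.35 and 2.99. Among the members it was at 40.3 CPM without DOX where PPY was 1000 to 5000 CPM, 46.2 at 5000 to 20000 and 167 in the 2 cells at 20000 or more, and at 45.1, 55.7 and 81.0 with DOX. Its intervals overlapped between neighbouring bands in both libraries, and 1 of the 2 cells held 66.7% of their UMIs of the gene. Whether the counting used the strand of the reads is not given in the sources used here, so reads running past the end of PPY and reads from the plus strand cannot be told apart where they overlap.

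The other genes near PPY differed less. NAGS, which makes the activator of the urea cycle and lies just past the far end of the PYY model, was at 17.5 CPM against 4.23 without DOX (log2 2.05, 1.48 to 2.57) and 10.2 against 3.61 with DOX (log2 1.50, 1.01 to 1.96), from 30 and 40 UMIs, under the level of 20 CPM asked of genes below. The scaffold gene MPP2 had log2 ratios of 0.48 and 0.60. TMEM101, a transmembrane protein gene, had 0.28 and 0.20 with intervals that include 0. Of 9 genes within 100 kb, 6 had a UMI in a member, and these without NAGS make the 5 that reached 20 CPM in either group in both libraries.

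**Figure D1:**
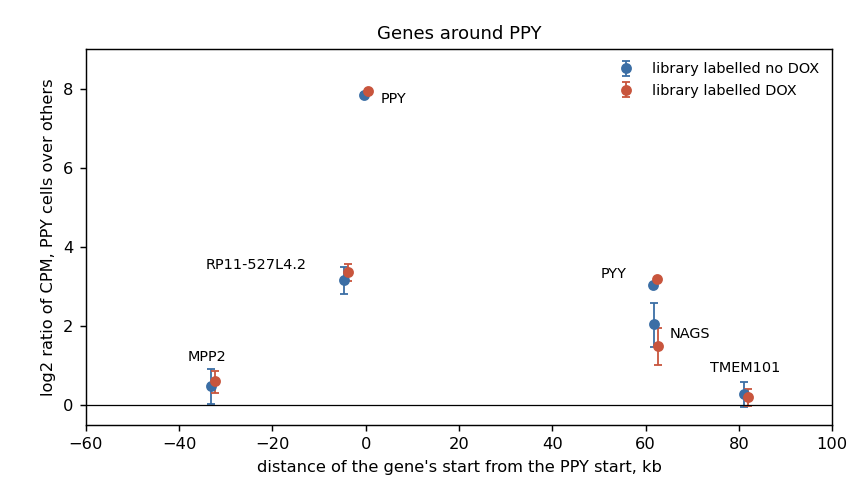
Log2 ratio of CPM in PPY-expressing over other cells (vertical axis) against the distance of each gene's start from the PPY start in kilobases (horizontal axis), 1 point per gene and library with 95% counting intervals. PPY, which chose the cells, is highest, PYY and RP11-527L4.2 lie at 3.04 to 3.36 and NAGS at 2.05 and 1.50, and MPP2 and TMEM101 lie under 1.

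Most members carried insulin RNA as well. INS was at a median of 126413 CPM without DOX and 95372 with DOX, against 146177 and 148672 in the other cells, and 82.5% and 70.9% of members reached 50000 CPM against 78.6% and 80.4% of the other cells. Summed INS was 133077 CPM against 154171 without DOX and 110256 against 151119 with DOX. Duct cells came through the same sort for an active insulin gene and held 45373 and 44185 CPM of INS. Their level is thus not one of free RNA alone. The lowest INS among the other cells was 5390 CPM without DOX and 5717 with DOX. A part of the INS RNA in any droplet may be free RNA, which was not tested.

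Glucagon RNA divided the members. GCG was at least 5000 CPM in 38 of 97 members without DOX (39.2%, 29.4 to 49.6) and in 107 of 220 with DOX (48.6%, 41.9 to 55.4), and under 1000 CPM in 52 (53.6%) and 92 (41.8%). Between these limits lay 7 and 21 cells. The same 5000 CPM were reached by 7.84% and 6.71% of the other cells. Inside the GCG-high members the median was 81245 and 70021 CPM, inside the GCG-low members 223 and 221. This division was made after its values were seen.

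Combinations with GCG in 1 cell were more frequent among the members, of which more were GCG-high, than among the other cells. INS and GCG were both over their limits (50000 and 5000 CPM) in 29.9% and 30.9% of members, against 6.42% and 5.40% of the other cells. Among GCG-high members 29 of 38 and 68 of 107 reached the INS limit. Among GCG cells 1330 of 1623 and 1263 of 1571 did, so the combination was not particular to the members. The INS limit lies just above the 45373 and 44185 CPM of INS in duct cells, which came through the same insulin sort. GCG without INS was found in 9.28% and 17.7%, and neither in 8.25% and 11.4%. All of INS, GCG and PYY were over their limits in 25.8% and 25.5% of members, against 2.39% and 2.37% of the other cells. Scrublet marked 9 of 29 members with both INS and GCG without DOX (31.0%, 15.3 to 50.8) and 22 of 68 with DOX (32.4%, 21.5 to 44.8), against none of 9 and 8 of 39 with GCG but not INS (20.5%, 9.30 to 36.5). Members with INS but not GCG were marked in 29.4% and 34.1%. Without the marked cells INS and GCG were both over their limits in 28.2% and 29.9% of members and all 3 hormones in 25.4% and 24.7%.

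Across members INS and GCG ran against each other, with a Spearman rho of -0.36 without DOX and -0.26 with DOX, where 2 abundant RNAs share 1 total. PPY and GCG had a rho of 0.17 and 0.13, which is weak in sparse counts and no finding.

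**Figure D2:**
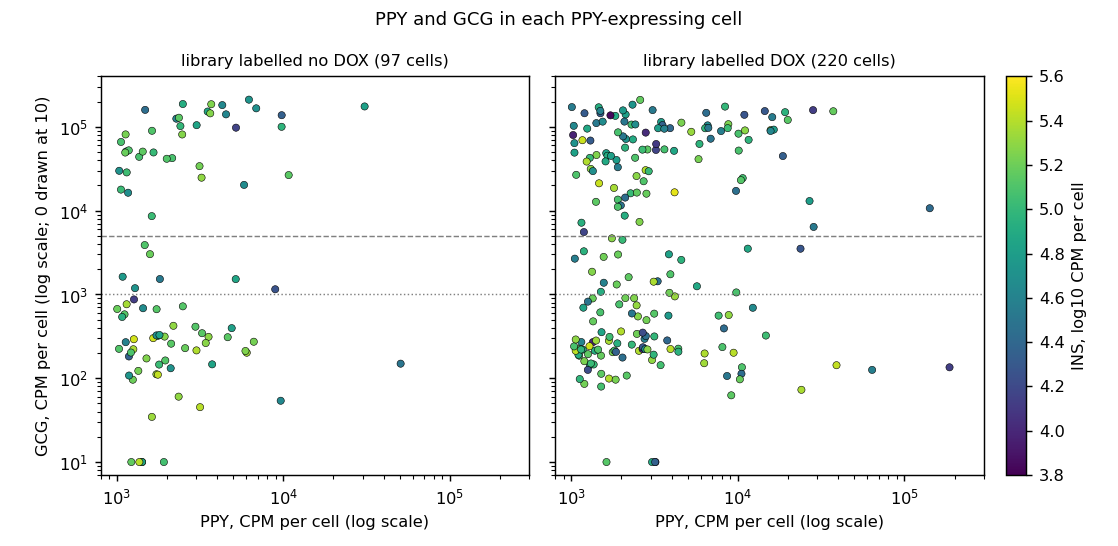
PPY (horizontal axis, CPM, log scale) against GCG (vertical axis, CPM, log scale) in every PPY-expressing cell, 1 panel per library and 1 point per cell. The colour gives INS as log10 CPM, and the lines mark 1000 and 5000 CPM of GCG. Members above the upper line have a median GCG of 81245 and 70021 CPM, those under the lower line 223 and 221, and both kinds occur at low and at high PPY.

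Against the other cells of the same library, 62 of 5726 genes measured were higher in the members by a log2 ratio of at least 1 in both libraries (1.08% of genes) and 75 were lower (1.31%). A gene was measured if it reached 20 CPM in either group in both libraries. Of these, 34 of the higher genes were under 20 CPM in the other cells and 44 of the lower genes under 20 CPM in the members of at least 1 library, so that they passed the filter through the group in which they are high. Since PPY chose the members, these shares are the background for the lists below and not a result. Without the cells marked as doublets the counts were 128 and 255.

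Genes of the alpha cell programme were among the highest. IRX1 and IRX2, Iroquois homeobox factors of the alpha cell, were at 37.4 and 26.1 CPM against 5.86 and 4.78 (log2 2.68 and 2.45), and at 89.5 and 70.4 against 24.7 and 18.4 (log2 1.86 and 1.93). C5orf38, the neighbour of IRX2, had log2 ratios of 1.74 and 2.11. In the other cells IRX1 and C5orf38 were under 20 CPM in both libraries, and IRX2 with DOX. There these genes were measured only through the members. GCG itself was at 28675 and 35704 CPM against 4300 and 4355 (log2 2.74 and 3.04). All of these were higher in both libraries.

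UCN3, urocortin 3, a peptide of mature beta cells and of human alpha cells, was at 38.6 CPM against 6.79 without DOX (log2 2.51) and 36.8 against 6.88 with DOX (log2 2.42), with a UMI in 27.8% and 22.3% of members. LEPR, the leptin receptor, was at 99.4 and 86.0 CPM against 31.4 and 26.3 (log2 1.66 and 1.71), and at 209 and 199 in SST cells. MGST1, a microsomal glutathione transferase, was at 337 and 411 against 89.4 and 79.8 (log2 1.91 and 2.37). ETV1, an ETS factor and gamma cell gene, was at 263 and 249 against 99.5 and 77.4 (log2 1.40 and 1.69). KL, the coreceptor klotho, had log2 ratios of 1.70 and 2.34, and GCNT3, which branches mucin glycans, 2.29 and 2.24. TMEM236, the amino acid transporter SLC6A19, IQGAP2, NBL1 and C1QTNF4 were also among the 20 highest. UCN3, KL, GCNT3, TMEM236, SLC6A19 and IQGAP2 were under 20 CPM in the other cells, so they were measured only through the members.

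Immediate early genes also stood among the leading genes. NR4A1, an orphan nuclear receptor, had log2 ratios of 2.41 and 2.32, EGR4, a zinc finger factor, 3.10 and 2.21, and FOSB, a subunit of AP-1, 2.50 and 1.83. These genes were under 20 CPM in the other cells, so they were measured only through the members. Without DOX 1 member held 32.4% of the NR4A1 and 27.2% of the EGR4 UMIs. They were also raised in GCG and SST cells. FOSB was at 25.2 and 20.5 CPM in members, 10.1 and 15.1 in GCG cells, 22.8 and 19.5 in SST cells and 4.45 and 5.77 in other cells. Over the list of heat shock and immediate early genes, 5 of 13 measured were higher and none lower, of which HSPB1, FOSB and ATF3 were measured only through the members in at least 1 library, with a median log2 ratio of 1.01 and 0.90, where the median of all genes was -0.07 and -0.09. HSPB1 was higher by 1.50 and 1.47, FOS by 1.01 and 1.04, ATF3 by 1.59 and 1.37 and IER2 by 1.20 and 1.13. Their summed level was 2536 and 2286 CPM in the members and 1708 and 1570 in the other cells. These genes respond to dissociation and sorting as well as to signals, and their part in the other differences was not tested.

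MT1M and the neurofilament genes were among the genes lowest in the members. MT1M, a metallothionein that binds zinc and copper, was lowest, with log2 ratios of -5.91 (-8.95 to -4.06) and -3.61, where 1 cell held 61.5% of its UMIs with DOX and the ratio without it was -4.97. The neurofilament genes NEFL and NEFM had -2.32 and -3.70, and -2.28 and -2.58, where single cells held 67.8% of the NEFL and 39.6% of the NEFM UMIs of the members without DOX. Without the richest cell NEFL had -3.94 and NEFM -2.99 there. These genes were also low in other classes. NEFM was at 433 and 395 CPM in GCG cells, 338 and 298 in FEV cells and 455 and 425 in SST cells. Insulin cells held 2085 and 1492 CPM of it. MT1M was at 26.1 and 9.75 CPM in GCG cells and 16.1 and 5.91 in FEV cells, against 114 and 62.8 in insulin cells. RAMP1, which turns the calcitonin receptor family towards other ligands, had -2.09 and -1.86. EBF1, SEMA3C, SAMSN1, CCBE1 and HOPX were also among the lowest. In the members MT1M, EBF1, SEMA3C and SAMSN1 were under 20 CPM in both libraries, and NEFL with DOX. There these genes were measured only through the other cells.

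**Figure D3:**
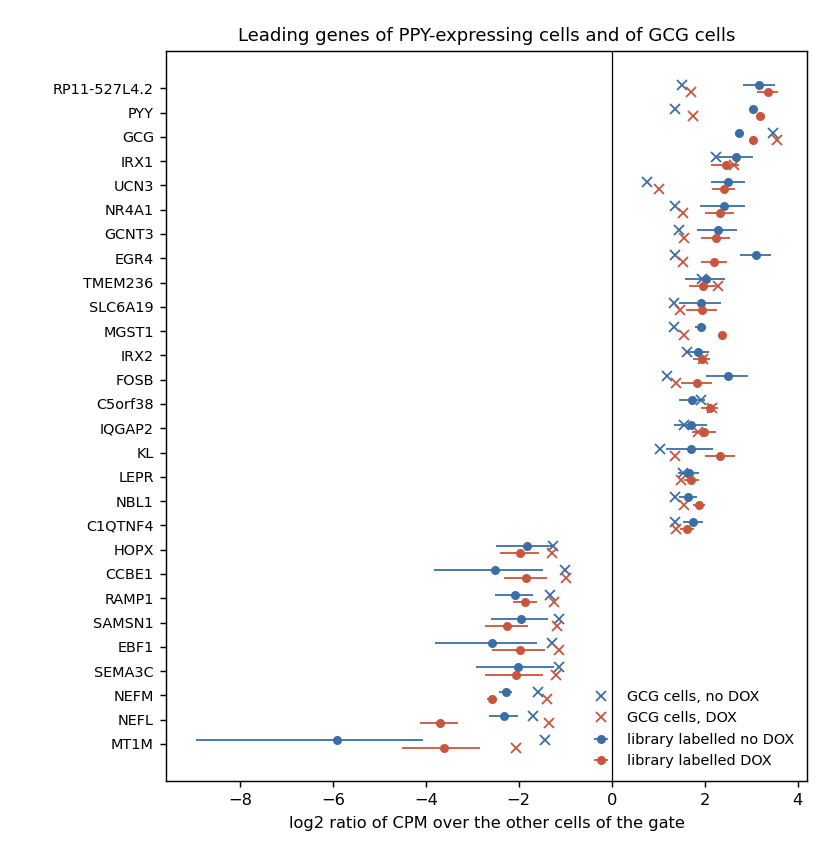
Log2 ratio of CPM over the other cells (horizontal axis) for the genes highest and lowest in PPY-expressing cells (vertical axis), as points with 95% counting intervals for PPY-expressing cells and crosses for GCG cells, in each library. PPY, which chose the cells and is highest, is left out. Genes are ordered by the value nearer 0 of both libraries, by which RP11-527L4.2 and PYY come next with 3.04 to 3.36, right of the crosses of GCG cells, and MT1M is lowest at -5.91 and -3.61.

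Leaving out PPY, which the rule used, the NPY family list had 7 measured genes, of which 2 were higher and none lower, with a median of 0.44 and 0.37. These were PYY and DPP4, which was at 172 CPM against 73.8 without DOX (log2 1.22) and 205 against 63.8 with DOX (log2 1.68). CPE, the carboxypeptidase that trims prohormones, had 0.98 and 1.30 and so missed the limit of 1 in the library labelled no DOX. The convertase PCSK2 had 0.44 and 0.37, while the convertase PCSK1 had -0.84 and -1.38 and the receptor NPY1R -0.83 and -1.03.

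Of 15 genes listed for adult PP cells 8 were measured. Higher were 4, among them PYY, ETV1 and SLITRK6 (log2 1.29 and 1.10, measured only through the members), and none was lower, with a median of 1.08 and 1.24. THSD7A had 0.87 and 1.38, the aquaglyceroporin AQP3 -0.38 and 0.09, and STMN2, a neuronal microtubule factor, -0.72 and -0.90. SERTM1 was under the level of 20 CPM with DOX, at 22.2 and 14.6 CPM against 4.90 and 3.19. CARTPT gave 1 UMI in the members of each library. The members thus carried a part of that list. Over GCG cells only PYY of that list was higher by at least 1 in both libraries (log2 1.69 and 1.43).

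The alpha cell list had 6 of 15 measured genes higher and none lower, of which IRX1 and IRX2 were measured only through the members in at least 1 library, at a median of 0.44 and 0.95. Among them were GCG, IRX1, IRX2, DPP4 and CLU (1.30 and 1.49). DPP4 was at 47.9 and 129 CPM in GCG-high members, against 254 and 284 in GCG-low members. Without DOX it was thus not higher in GCG-high members than in the other cells. The beta cell list had 1 gene higher, UCN3, and 4 lower of 14, at -0.66 and -1.29, where UCN3 was measured only through the members and ENTPD3 only through the other cells. Those lower were NKX6-1, the regulator of beta cell identity (-1.01 and -1.49), ENTPD3, a surface ectonucleotidase (-1.63 and -1.77), DLK1, a Notch-like ligand (-1.35 and -1.53), and NPTX2 (-1.36 and -1.63). PDX1 had -0.75 and -1.21.

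Leaving out SST and HHEX, which the rule used, 1 of 6 delta cell genes measured, LEPR, was higher (median 0.78 and 0.85). SST itself was at 4746 and 3214 CPM against 2105 and 2030 in the other cells, under the limit of the rule. Duct cells held 12348 and 4606 CPM but had no limit on SST, so lying under them was in part set by the rule. The epsilon cell list had 2 of 3 higher, SPTSSB (1.52 and 1.62) and SPINK1 (1.38 and 1.36). In the serotonin and FEV list none of 8 was higher and PAX4, which favours the beta over the alpha fate, was lower (-1.27 and -1.10). None of 20 secretory granule genes, 8 ion channel genes and 3 duct and exocrine genes passed the limit. CHGA, the main granule protein, had 0.17 and -0.03.

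Of 19 endocrine transcription factors measured only ETV1 passed, while PAX6 had 0.91 and 0.87. The hormone gastrin (GAST) was at 9317 CPM against 8368 without DOX (log2 0.16) and 6605 against 3433 with DOX (log2 0.94). Markers of other lineages were low. Mesenchyme, endothelium and immune genes summed to 18.1 and 14.6 CPM in the members against 34.7 and 33.9 in the other cells, and duct and exocrine genes to 293 and 225 against 384 and 347.

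Set beside GCG cells, the members differed in few genes. Of 5322 genes measured 4 were higher (0.0752%) and 2 lower (0.0376%). The 4 were PPY, which the rule used, PYY (1.69 and 1.43, against 1648 and 1797 CPM in GCG cells), RP11-527L4.2 (1.66 and 1.66) and UCN3 (1.75 and 1.41). In GCG cells RP11-527L4.2 was at 13.8 and 15.3 CPM and UCN3 at 11.5 and 13.8. Both were under 20 CPM there and so measured only through the members. Lower were UCN, urocortin (-1.10 and -1.14), and APOA2, an apolipoprotein (-1.28 and -2.21), where 1 cell held 68.0% of the members' UMIs without DOX. Without the richest member APOA2 had -2.89 and -2.83 and UCN -1.66 and -1.66. IRX2 (0.24 and -0.04) and LEPR (0.13 and 0.23) lay close to the GCG cells, and IRX1 had 0.44 (0.05 to 0.81) without DOX and -0.17 (-0.48 to 0.12) with DOX.

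More genes differed from insulin and FEV cells. Against insulin cells 127 of 5432 genes were higher (2.34%) and 100 lower (1.84%), and against FEV cells 189 of 6728 were higher (2.81%) and 676 lower (10.0%). IRX2 exceeded the insulin cells by 2.56 and 2.74 and the FEV cells by 2.45 and 2.73. ETV1 exceeded them by 1.55 and 1.93 and by 2.64 and 3.15. NKX6-1 was lower than in either class, by -1.01 and -1.53 against insulin cells and -1.25 and -1.66 against FEV cells.

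**Figure D4:**
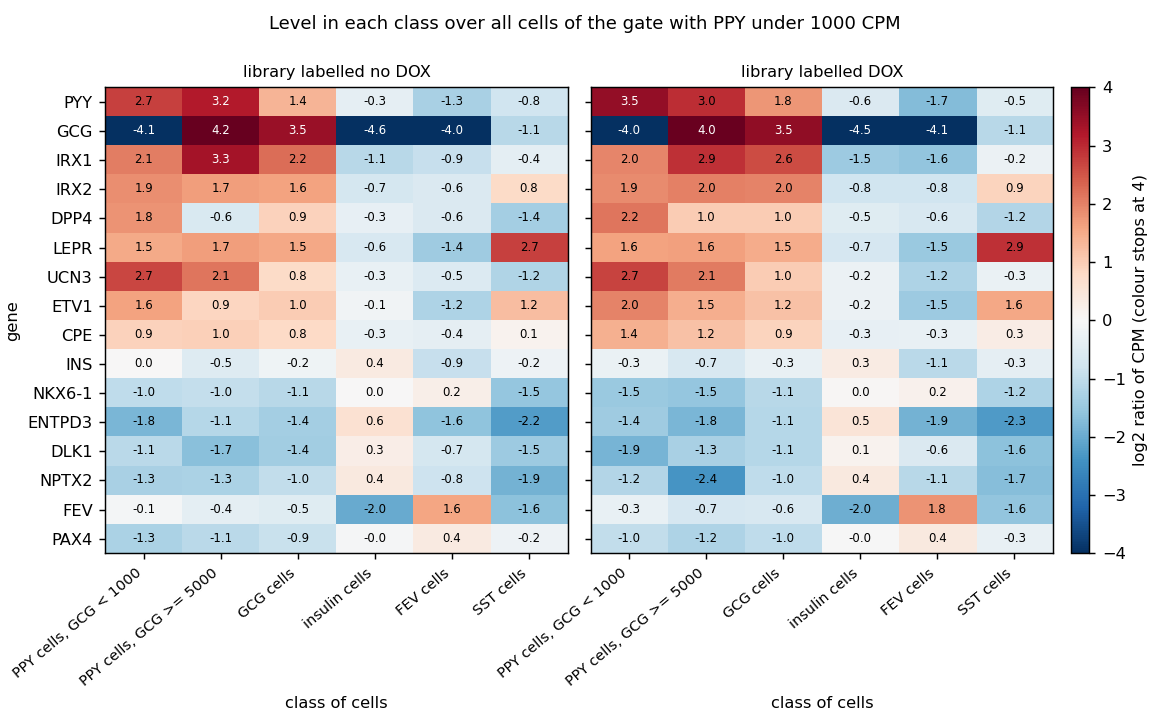
Log2 ratio of CPM in each class of cells (columns) over all other cells with PPY under 1000 CPM, for selected genes (rows), 1 panel per library, with the ratio as colour and number. IRX2 and LEPR are positive in GCG-low members, GCG-high members and GCG cells and negative in insulin and FEV cells, and both are also positive in SST cells, where LEPR is highest, while UCN3 is higher in both kinds of members than in GCG cells.

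IRX2 was also higher in members with little glucagon RNA. Taking cells with GCG under 1000 CPM in both groups, 89 of 5848 genes were higher in the members (1.52%) and 75 lower (1.28%). IRX1 was at 24.5 and 18.5 CPM against 3.39 and 2.29, under the level of 20 CPM with DOX. IRX2 was at 89.7 and 67.8 CPM against 18.2 and 12.5 in the GCG-low other cells (log2 2.30 and 2.44), and LEPR at 89.7 and 79.5 against 23.2 and 19.8 (log2 1.95 and 2.01). These ratios were larger than those over all levels of GCG. In the GCG-low other cells IRX2 was under 20 CPM in both libraries and LEPR with DOX, so there they were measured only through the members.

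In the same GCG-low cells UCN3 was at 42.8 and 45.2 CPM against 5.98 and 5.93 (log2 2.84 and 2.93), measured only through the members. DPP4 had log2 ratios of 2.04 and 2.43, ETV1 1.84 and 2.24 and PYY 3.11 and 4.02. INS had -0.01 and -0.28. NKX6-1 had -1.13 and -1.59, so this difference was also present in cells with little glucagon RNA.

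With GCG at 5000 CPM or more in both groups, 4 of 5235 genes were higher in the members (0.0764%) and 5 lower (0.0955%). The higher genes were again PPY (6.37 and 6.26), PYY (1.83 and 1.20), RP11-527L4.2 (1.52 and 1.63) and UCN3 (1.38 and 1.08), where UCN3 had 0.70 and 0.68 without the member richest in it. RP11-527L4.2 and UCN3 were again measured only through the members. FABP1, RAMP1, ANGPT2, PLCE1 and IAPP were lower, IAPP with 1 UMI in the members without DOX. These 5 were under 20 CPM in the members of at least 1 library and so measured there only through the GCG cells.

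Between GCG-high and GCG-low members 5 of 5471 genes were higher in the GCG-high cells (0.0914%) and 17 lower (0.311%). GCG divided them by choice. The others higher were APOA2 (2.81 and 1.86), the glycoprotein hormone subunit CGA (2.40 and 1.87), LOXL4, a lysyl oxidase-like enzyme (1.94 and 1.37), and the metallothionein MT1G (1.40 and 2.24). APOA2 and MT1G rested on single cells, which held 68.0% and 35.1% of the members' APOA2 UMIs and 34.6% and 55.2% of those of MT1G. Without the richest member in each library APOA2 had 0.21 and 1.02 and MT1G 0.24 and 0.63, while LOXL4 had 1.26 and 1.22 and CGA 2.40 and 1.38. Among those lower was DPP4, at 47.9 CPM in GCG-high against 254 in GCG-low members without DOX (log2 -2.41) and 129 against 284 with DOX (log2 -1.13). WLS, which carries Wnt ligands to the surface, had -1.69 and -1.34, and the incretin gene GIP -2.57 and -2.37, where 1 cell held 63.3% of the GIP UMIs of all members without DOX and the ratio without it was -0.77.

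The members were divided by PPY at 5000 and 20000 CPM. PYY was at 4594 CPM in members with PPY of 1000 to 5000 and at 8076 in those of 5000 to 20000 without DOX, but at 4603 and 4959 with DOX. In the 10 cells at 20000 or more with DOX it was at 9728, where 1 cell held 67.7% of the PYY UMIs, and the other 9 cells were at 3343. ETV1 was at 259 and 281 CPM without DOX and 249 and 228 with DOX, and UCN3 at 39.6 and 34.7, and 36.7 and 41.8. Without the cell richest in PYY in each band, PYY was at 4180 and 7533 CPM in these bands without DOX and at 4452 and 4374 with DOX, so it was higher in the band of 5000 to 20000 CPM in the library labelled no DOX alone. UCN3 without DOX also rested on 1 cell, which held 66.7% of the UMIs of that band, and was at 13.2 CPM without it.

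GCG was at 25730 CPM in members with PPY of 1000 to 5000 and 33507 in those of 5000 to 20000 without DOX, and at 31456 and 50933 with DOX. Without the cell richest in GCG in each band it was at 23779 and 24346 without DOX and at 30219 and 48544 with DOX, so the difference without DOX rested on 1 cell, which held 30.9% of the GCG UMIs of its band. MEIS2, a TALE homeobox factor of the adult PP cell list, was at 17.0, 38.5 and 83.7 CPM from the lowest to the highest band without DOX and at 13.4, 27.9 and 64.8 with DOX. Its intervals overlapped between neighbouring bands, and the lowest band was under 20 CPM. Without the cell richest in MEIS2 in each band it was at 14.6, 28.5 and 0 CPM without DOX and at 11.8, 25.6 and 51.9 with DOX. The level of the highest band without DOX thus rested on 1 cell. PDX1 was at 52.3, 7.71 and 0 CPM without DOX and 40.7, 30.4 and 8.10 with DOX, and NKX6-1 at 55.9, 23.1 and 0, and 40.1, 32.9 and 0. The highest band holds 2 and 10 cells, in which the count of 0 of NKX6-1 allows up to 103 and 29.9 CPM (exact Poisson upper limit). Of MEIS2, PDX1 and NKX6-1, the intervals of the lower bands did not overlap for PDX1 without DOX. In the band of 5000 to 20000 CPM without DOX single cells held all of the PDX1 and 66.7% of the NKX6-1 UMIs. Without the richest cell in each band NKX6-1 was at 49.2 (38.2 to 62.4) and 9.36 (1.13 to 33.8) CPM there. With all cells its intervals overlapped (44.2 to 69.6 and 8.48 to 50.3), so they parted only after cells chosen for their level were left out. With DOX the intervals of the lower bands overlapped for PDX1 and for NKX6-1. A difference between bands was not tested.

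The share of PPY-expressing cells among all cells with at least 2000 UMIs and under 20% MT- UMIs was 0.351% without DOX (97 of 27668, 0.284 to 0.428) and 0.750% with DOX (220 of 29350, 0.654 to 0.855). The log2 ratio of the shares was 1.10 (0.75 to 1.46). The intervals do not overlap, yet they count cells of 1 library each, and the spread between cultures was not measured. PPY in the other cells was at 15.6 and 22.0 CPM, also higher with DOX, and the part of free RNA in the share was not tested.

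The ratio stayed above 0 at each PPY limit. At 500 CPM the shares were 0.658% and 1.26%, at 2000 they were 0.159% and 0.450%, and at 5000 they were 0.0542% and 0.187%. The ratio was larger at the higher limits, at 1.50 for 2000 CPM and 1.79 for 5000 CPM. Each limit keeps a part of the cells of the limit below it. At 5000 CPM few cells were left, 13 and 45 at 5000 to 20000 CPM and 2 and 10 at 20000 or more. A trend over the limits was not tested. GCG-high members made 0.137% and 0.365% of all cells (log2 1.41, 0.86 to 1.98) and GCG-low members 0.188% and 0.313% (log2 0.74, 0.23 to 1.26), with overlapping intervals of the ratio.

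**Figure D5:**
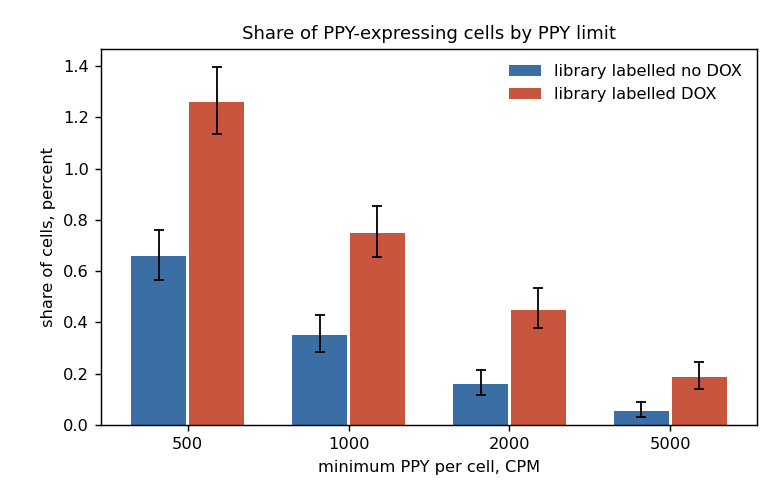
Share of cells in percent (vertical axis) that met the rule at PPY limits of 500, 1000, 2000 and 5000 CPM (horizontal axis) in each library, with exact Clopper-Pearson 95% intervals. The library labelled DOX is above that labelled no DOX at each limit, from 1.26% against 0.658% down to 0.187% against 0.0542%.

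Within the members the libraries differed as follows. Of 5746 genes with at least 20 CPM in either library, 4 were higher by a log2 ratio of 1 or more in the library labelled DOX (0.0696%) and 24 lower (0.418%). In the other cells 1 of 5767 was higher (0.0173%) and 6 lower (0.104%), where far more UMIs stand behind each value. The median ratio over all genes in the members was -0.02. Without the cells marked as doublets 33 genes were higher and 69 lower in the members.

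PPY, PYY and GCG differed by less than 1 between the libraries. PPY had a log2 ratio of 0.60 in the members and 0.49 in the other cells, PYY -0.14 and -0.27, and GCG 0.32 and 0.02. PYY differed in direction between the kinds of members, with -0.51 (-0.56 to -0.45) in the GCG-high and 0.52 (0.46 to 0.57) in the GCG-low members, and with -0.44 and 0.49 without the cell richest in PYY in each library, a difference that was not tested. GCG had -0.25 in the GCG-high and 0.05 in the GCG-low members. The heat shock genes HSPA1A and HSPA1B were lower with DOX, by -2.04 and -2.25 in the members and -1.80 and -1.48 in the other cells, HSPA1A going from 133 to 32.2 CPM. DDIT4, a stress-induced inhibitor of mTOR, had -1.53, and -0.93 without its richest cells. IAPP, the amyloid peptide secreted with insulin, had -1.78, but 1 cell held 92.0% of its UMIs without DOX, and without the cell richest in it in each library the ratio was 1.50.

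LY6H, a neuronal membrane-anchored protein gene, was higher with DOX in the members, from 104 to 221 CPM (log2 1.09), while the other cells had -0.01. SGMS1, a sphingomyelin synthase, had 1.09 and the neuropeptide gene GAL 1.07, with 0.40 in the other cells, where single cells held 55.2% and 34.6% of the GAL UMIs of the members. MT1H, a metallothionein, had 3.56 (2.16 to 5.46), with 70.4% of its UMIs in 1 cell. Others among the 10 highest were CMB9-22P13.1 (0.94), KATNAL1 (0.94), HTRA2 (0.92), ZDHHC23 (0.89) and DTYMK (0.84). Without the richest cells MT1H had 2.21 and GAL 1.58. The remaining lowest were NEFL (-1.96, and -0.61 without the richest cells), GIP (-1.38, and -0.12 likewise), CXCL14 (-1.33), HDX (-1.30, and -0.77 likewise), ULK4 (-1.23) and NR0B2 (-1.22). A difference of the DOX ratio between members and other cells was not tested.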

How the data were processed

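Both libraries were 10X Genomics 3′ libraries of live sorted eBC cells. The authors deposited counts, whole numbers of UMIs per gene and barcode for 33694 genes with no normalization, in which each barcode has at least 500 UMIs. The file headers name Cell Ranger 3.0.2, the submitters' processing notes list Cell Ranger 3.0, kallisto, bustools 0.40.0, Scanpy, Seurat and GRCh38, and the methods name kallisto and bustools. Totals were 550240855 UMIs without DOX and 520849221 with DOX, with medians of 15991 and 14431 per barcode. All cells with at least 2000 UMIs and under 20% MT- UMIs were used (27668 and 29350).

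UMIs of a group of cells were summed and given per 1000000 (CPM), with exact Poisson intervals, ratios with exact conditional binomial intervals and shares with exact Clopper-Pearson intervals, at 95% (Python 3.11.15, numpy 2.4.6, scipy 1.17.1, pandas 2.3.3). Scrublet was run per library in scanpy 1.11.5, and figures were drawn with matplotlib 3.10.9. Cells are not replicates, so no p is given. Scripts were tested on simulated data. Named genes were all genes of 18 lists, the 20 highest and 10 lowest ratios of members over other cells (ranked by the value nearer 0, with at least 20 CPM and 20 UMIs in the higher group of both libraries), and the 10 highest and 10 lowest DOX ratios whose interval leaves out 0, at 20 CPM in 1 library and 20 UMIs over both. The members and lists were chosen with earlier results of these data known, and the GCG division, the comparisons of GCG-high and GCG-low members and the genes near PPY after values were seen. Some genes of the lists and rankings are not reported here.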

Additional observations from a re-analysis of the deposited data

Results flagged for a closer look

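For 5 genes picked from those with the highest or lowest DOX ratios, the level with DOX against that without lay to opposite sides in both groups. The groups are the PPY-expressing cells and the other cells. Other named genes also differed in sign, among them MGST1 with 0.29 in the members and -0.16 in the other cells. With 1 library per condition the difference between both groups of cells was not tested. MT1H had a log2 ratio of 3.56 in the members and -0.39 in the other cells, with 70.4% of its UMIs in 1 member. SGMS1 had 1.09 and -0.10, and ZDHHC23, a palmitoyltransferase gene, 0.89 and -0.19. IAPP had -1.78 and 0.14, where 1 member held 92.0% of the UMIs without DOX. Without the richest cell in each library IAPP had 1.50 in the members, on the same side as in the other cells. HDX, a homeobox gene, had -1.30 and 0.20.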

How the results depend on the processing

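No paired analysis was possible because there was 1 library per condition. The share of PPY-expressing cells was higher in the library labelled DOX under every alternative run, with a log2 ratio of 0.75 (MT- share under 10%) to 1.79 (PPY at least 5000 CPM). It moved to 0.625% with DOX at an MT- share under 10%, to 0.658% and 1.26% at PPY of 500 CPM, 0.159% and 0.450% at 2000 (log2 1.50) and 0.0542% and 0.187% at 5000, to 0.473% and 0.981% without the SST limit, and to 0.260% and 0.624% at SST under 5000 CPM. Of genes higher and lower in members (62 and 75), there were 181 lower with the mean of per-cell CPM, 128 and 255 without doublets, 192 lower at PPY of 5000 CPM, 156 and 171 from 5 CPM, 29 and 36 from 50 CPM, and 4 and 5 with GCG at 5000 CPM or more in both groups. For DOX ratios in members (4 and 24) the counts were 11 and 48 with the per-cell mean, 8 and 41 with the hormones left out of the total, 33 and 69 without doublets, 348 and 393 at PPY of 5000 CPM, 188 and 219 from 5 CPM, 2 and 7 from 50 CPM, 59 and 93 in GCG-low and 129 and 102 in GCG-high members. These last sets hold fewer cells. At lower hormone limits INS was reached by 96.9% and 92.3% of members, PYY by 91.8% and 90.5%, and INS with GCG by 40.2% and 48.6%, where the lower INS limit of 20000 CPM is under the level in duct cells. With GCG at 5000 CPM or more in both groups the ratio without DOX turned for NR4A1 (-0.34), TMEM236 (-0.40), SLC6A19 (-0.33), NEFL (0.53) and NEFM (0.23). At PPY of 5000 CPM the DOX ratio turned for CMB9-22P13.1 (-0.44), HTRA2 (-0.31), ZDHHC23 (-0.13), CXCL14 (2.96) and NR0B2 (1.76), and that of IAPP was 4.22 in GCG-high members and 1.50 without its richest cells. Of the other named levels, 242 stayed within their interval and 226 moved in size with the same sign, and of the named DOX ratios 124 and 28. Depth limits genes near 20 CPM, since the members without DOX hold 1709714 UMIs in all. The cause of these changes was not tested.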
